A study of Homo sapiens with 36 samples.

Results

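HIF-2α/1α and HIF-1α carry the same C-terminal disordered region on different DNA-binding parts, and the 3 Cut&Run peak lists of each protein were compared here. The members were the anti-V5 lists of the 3 samples titled HIF-2a/1a and the 3 titled HIF-1a, on chromosomes 1 to 22, X and Y. They are 6 of the 36 samples in the series and hold 101695 of the 213711 peaks in its 18 anti-V5 lists. The question the pair addresses is what changes in chromatin binding when only the N-terminal, DNA-binding part is exchanged.

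Both proteins were expressed in 786-O, a clear cell renal carcinoma line without functional VHL, the ubiquitin ligase subunit that marks HIF-α for destruction, and without functional HIF-1α. HIF-2α/1α joined residues 1 to 365 of HIF-2α to residues 364 to 826 of HIF-1α, and the other protein was HIF-1α itself. Each was fused at its N-terminus to V5 and HaloTag, driven by the weak L30 promoter from a PiggyBac insertion, and studied as 1 stably selected pool of cells, so protein and pool cannot be told apart. Both pools also held the endogenous, untagged HIF-2α of 786-O, which the V5 antibody does not see and which shares the partner HIF-1β. Every list was called against mouse IgG from the same line and replicate. Further lists serve as reference, namely the reverse pair HIF-2α and HIF-1α/2α (same expression system, HIF-2α disordered region), the KIN clone with V5-Halo on endogenous HIF-2α, and untagged wild-type (WT) cells, whose lists give the antibody background. The labels call the 3 samples per line biological replicates without saying what separated them, so p-values measure the spread between these samples.

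HIF-α subunits pair with HIF-1β through their N-terminal bHLH and PAS domains and read a short hypoxia response element (HRE) in DNA. The C-terminal part is largely disordered and carries the oxygen-sensitive degradation signal and the transactivation domains. HIF-1α is best known for glycolytic and mitophagy genes, and HIF-2α for growth factor, erythropoietic and lipid genes, although both recognise the same element.

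The lists of the 2 lines were of similar length. HIF-2α/1α gave 16977, 20808 and 12371 peaks in replicates 1, 2 and 3, and HIF-1α gave 15058, 20572 and 15909. The shortest and the longest list both came from HIF-2α/1α, so the groups overlapped, and the difference in log2 peak number was -0.06 (two-sided exact permutation test over 20 relabellings, p = 1). With 3 lists against 3 this test cannot give a p below 0.1. Depth, read from the lists as the genome-wide mean of fragments per base, ranged from 0.293 to 0.593 for the chimera and from 0.296 to 0.409 for HIF-1α. Absence of a peak from a list means only that none was called, and it does not show that the protein was missing from the site. Fewer bound cells and less binding per cell cannot be told apart in pools, and the amount of tagged protein per pool was not analysed here.

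In full lists the overlap between the 2 proteins was close to that between replicates of 1 protein. Of 19677 regions called in at least 2 of the 6 lists, after removal of regions called in 2 or more WT lists, 6181 were called in all 6. Regions called in a single WT list stayed in. WT replicate 2 called 11.7% of the 19677 and 17.7% of the 6181. WT replicates 1 and 3 called 0.0051% and 0.54% of the 19677, so the filter removed only part of the antibody background. The Jaccard index, the share of 2 lists' regions that both hold, was 0.429 to 0.481 between lists of the same protein and 0.40 to 0.494 between lists of different proteins. The means within and between proteins differed by 0.00819 (exact permutation test over the 10 divisions of the lists into 3 and 3, p = 0.3, adjusted p = 0.7 over 7 tests). Every list was then shortened to its 12371 peaks of lowest p-value, the length of the shortest list. The index rose to 0.496 to 0.582 within and 0.451 to 0.572 between proteins. The difference was 0.0251 (exact permutation test, p = 0.1, the smallest possible), and no other division into 3 and 3 gave a value as large. Where 2 lists shared a region, their summits lay a median of 25 to 35 bp apart within a protein and 22 to 35 bp apart between proteins. The distance between summits of different proteins was thus within the spread of replicates.

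The promoter share was alike in both proteins. Peaks with the summit within 1 kb of a protein-coding transcription start site (TSS) made up 30.8%, 29.3% and 30.0% of the HIF-2α/1α lists and 33.1%, 28.3% and 30.9% of the HIF-1α lists. The HIF-2α/1α values lay inside the range of the HIF-1α values, and the difference was -0.716 percentage points (exact permutation test, p = 0.7, adjusted p = 1). After shortening to equal length the difference was -1.02 points (exact p = 0.5). The other distance classes were examined after the values were seen and outside the tests adjusted together. The classes 10 to 100 kb and over 100 kb overlapped (0.113 and 0.115 points, exact permutation test, p = 0.8 and 0.9), and 1 class did not. Peaks 1 to 10 kb from a TSS made up 19.6%, 19.5% and 19.5% of the HIF-2α/1α lists and 19.1%, 19.2% and 18.9% of the HIF-1α lists, a difference of 0.488 points (exact permutation test, p = 0.1, the smallest possible, unadjusted) that was 0.437 points in lists of equal length (exact p = 0.1).

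Regions of endogenous HIF-2α, meaning regions found in 2 or more KIN lists, were covered by both proteins. HIF-2α/1α called 91.6%, 96.1% and 86.0% of them and HIF-1α called 86.3%, 93.7% and 88.9%, against a mean of 11.3% in the WT lists. The lines overlapped, and the difference was 1.59 points (exact permutation test, p = 0.8, adjusted p = 1). With shortened lists HIF-2α/1α was 3.15 points higher (exact p = 0.2).

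The HRE was searched as ACGTG or GCGTG on both strands within 50 bp of each summit, and its excess was taken over windows of equal width 1 kb away on each side, in percentage points of all peaks. The excess was 10.6, 12.2 and 12.6 points in the HIF-2α/1α lists and 11.8, 11.7 and 11.4 in the HIF-1α lists, and near 0 in the WT lists (mean -0.44). The 3 HIF-1α values fell inside the HIF-2α/1α range, with a difference of 0.141 points (exact permutation test, p = 0.9, adjusted p = 1) that turned to -0.181 in lists of equal length (exact p = 0.7). The flanking windows held the motif in 14.3% to 15.2% of peaks.

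Among peaks with an HRE, ACGTG, with or without a GCGTG, was present in 48.7%, 50.6% and 51.6% for HIF-2α/1α and in 47.3%, 50.2% and 48.2% for HIF-1α. HIF-2α/1α was higher in all 3 replicate numbers but the ranges overlapped, and the difference was 1.73 points (exact permutation test, p = 0.2, adjusted p = 0.7). In lists of equal length replicate number 2 did not keep this order, with 50.4% for HIF-2α/1α and 50.5% for HIF-1α. The motif of AP-1, the Fos and Jun family of factors, searched as TGACTCA or TGAGTCA, was in excess by 5.78, 6.12 and 5.66 points for HIF-2α/1α and by 6.25, 6.11 and 5.86 for HIF-1α (difference -0.223, exact permutation test, p = 0.3, adjusted p = 0.7). These 2 differences kept their direction with any 1 of the 6 lists left out, and neither passed a test.

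**Figure D1:**
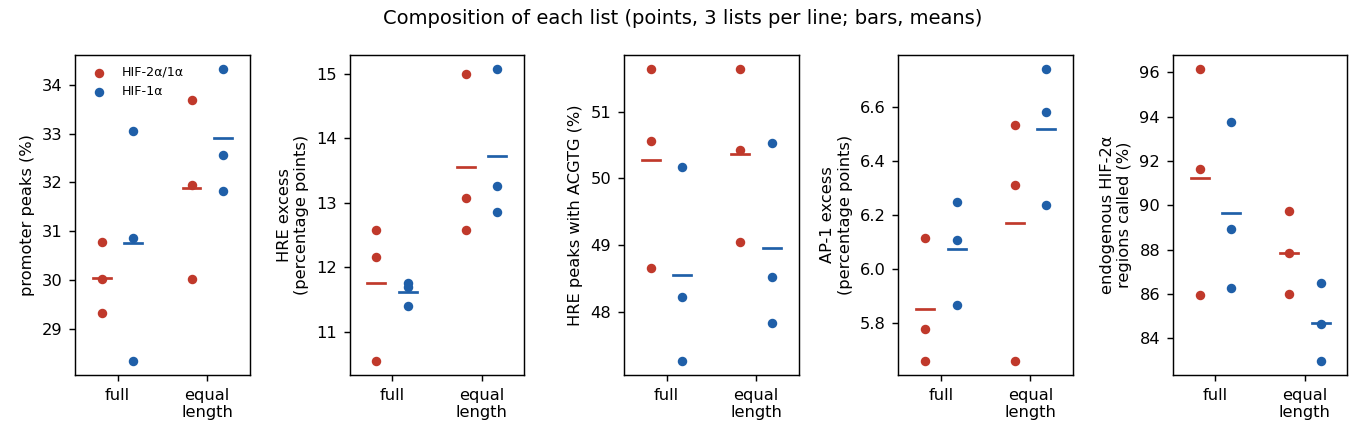
Composition of each anti-V5 list, as deposited (full) and shortened to 12371 peaks (equal length). Points are the 3 lists of HIF-2α/1α and of HIF-1α and bars their means. From left to right the axes give percent of peaks within 1 kb of a TSS, HRE excess, percent of HRE peaks with ACGTG, AP-1 excess (both excesses in percentage points) and percent of endogenous HIF-2α regions called. The axes do not start at 0. The lines overlap in every panel of full lists.

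Differences appeared at single regions. Peak height at the 6181 regions called in all 6 lists was compared in 2 ways. The first was the fold enrichment over local background as deposited. The second was the number of fragments at the summit (the pileup), which follows from the fold and the −log10 p that the authors deposited, divided by the depth and quantile-normalized, so that it is given in multiples of the genome-wide mean. The pileup was planned as an alternative and was described as a result after its counts were known, because its spread between replicates was smaller (median moderated SD 0.29 on the log2 scale, against 0.61 for the fold enrichment). Both measures were quantile-normalized before the fit, which gives all 6 lists the same distribution. The median difference over all regions, 0.02 (fold enrichment) and 0.04 (pileup), was thereby held near 0 and is no comparison of total binding.

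The sequences around the HRE are shown for regions whose pileup differed most between the proteins, so that the elements on either side can be compared. They were taken from the 10 regions of lowest p in each direction where a core lay within 50 bp of the summit, with ENO1 and HK2 added from the gene lists and CA9 from the regions called with only 1 protein. Each line gives the nearest gene, with 10 bases of hg38 on each side of the core, 5′ to 3′ on the strand that carries it, and capitals mark the core.
Higher in HIF-2α/1α, LMF1, chr16:952060-952084, plus strand: aggcatgtgtGCGTGgaggggtcct
Higher in HIF-2α/1α, ZNHIT1, chr7:101218147-101218171, plus strand: gggttagtacGCGTGcgcagcagtt
Higher in HIF-2α/1α, CXCR4, chr2:136246436-136246460, minus strand: accatagattGCGTGactctcagca
Higher in HIF-2α/1α, DYRK1A, chr21:37366719-37366743, minus strand: accccggctgACGTGctgacgtcct
Higher in HIF-2α/1α, NIT2, chr3:100335136-100335160, plus strand: ttttcaagttGCGTGacctcctcca
Higher in HIF-2α/1α, GFPT1, chr2:69387392-69387416, plus strand: ggcggcggcgACGTGgcagtggctc
Higher in HIF-1α, HIP1, chr7:75676428-75676452, minus strand: atggccatgtGCGTGtgttggctgc
Higher in HIF-1α, YOD1, chr1:207051635-207051659, plus strand: gtcgtgtaacGCGTGtcatcagatt
Higher in HIF-1α, ENO1, chr1:8879257-8879281, plus strand: ccgcagcgctGCGTGtccggggcca
Higher in HIF-1α, HK2, chr2:74834062-74834086, plus strand: cagccaatggGCGTGcgcacgtcac
Called with HIF-1α and not with HIF-2α/1α, CA9, chr9:35673900-35673924, minus strand: tacgggctgtACGTGcattggaaac
The marked core was ACGTG at GFPT1, DYRK1A and CA9 and GCGTG at the others, and the HK2 stretch also holds an ACGTG on the other strand, left unmarked. These few regions were picked by their calls and carry no comparison of the cores. Of all 483 regions higher in HIF-1α by pileup, 84 held ACGTG and 101 GCGTG within 50 bp of the summit. Of the 334 higher in HIF-2α/1α, 62 and 55 did, and of the 6181, 1078 and 1225. These counts were not tested. An ACGTG or GCGTG core lay within 50 bp of the summit in 27.3% of the 19677 tested regions and in 33.6% of the 6181 called in all lists, and within 250 bp in 74.4% of the tested regions, so that a core near a summit is common. The CA9 core lay 139 bp from its summit. The DYRK1A core, centred 50 bp from its summit, reached past the window and is not in these counts. A match describes the letters and is not shown to be the bound site.

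By fold enrichment, limma with Benjamini-Hochberg adjustment over the 6181 regions gave 2 regions higher in HIF-2α/1α (0.0324% of those tested) and 11 higher in HIF-1α (0.178%), against 267 and 381 at an unadjusted p under 0.05. The calls rested on the lists used. With HIF-2α/1α replicate 1 or replicate 3 left out none passed, with its replicate 2 left out 0 and 3 did, and with HIF-1α replicate 3 left out 0 and 1 did. With HIF-1α replicate 1 left out 1 and 6 passed, and with its replicate 2 left out 4 and 10. All 13 kept their sign in each of these fits. With the lists scaled to equal medians in place of quantiles, 35.7% of the calls were higher in HIF-2α/1α (5 and 9 regions), against 15.4%.

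The region with the lowest p by pileup, which also passed by fold enrichment, lay 67 bp from the TSS of SLC31A1, which encodes the copper importer CTR1 (chr9:113220412-113222191). Its fold enrichment was 4.94, 5.45 and 8.17 in the HIF-2α/1α lists and 33.8, 21.4 and 26.8 in the HIF-1α lists. Every HIF-1α value was above every HIF-2α/1α value, and the log2 difference was -2.29 (SE 0.51, limma adjusted p = 0.0165). Its normalized pileup was 165, 163 and 185 against 683, 643 and 717, a log2 difference of -1.99 (SE 0.15, limma adjusted p = 6.13e-08). The same region was called in 3 of 3 HIF-1α/2α lists and 1 of 3 HIF-2α lists, and in no KIN or WT list.

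The other regions higher in HIF-1α by fold enrichment included 2 more close to a TSS with values well apart. At PIGT, a subunit of the GPI transamidase, the fold enrichment was 5.50, 5.47 and 4.11 for HIF-2α/1α and 30.8, 15.1 and 18.7 for HIF-1α (chr20:45419471-45420067, log2 difference -2.21, limma adjusted p = 0.0172). At CREB3L2, a membrane-bound bZIP factor, it was 3.91, 6.96 and 3.45 against 15.8, 24.5 and 19.7 (chr7:138001394-138002616, -2.27, limma adjusted p = 0.0165). Neither gene's groups overlapped. The remaining 8 had PDE1A, FAM174B, KLF14, WNT2B, TRIB1, PPP1R15B, MEAK7 and PDS5B as the nearest gene. Those nearest KLF14 and TRIB1 lay 187454 and 222454 bp from the TSS.

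The 2 regions higher in HIF-2α/1α by fold enrichment were intronic. In KLHL29, 34271 bp from the TSS, the fold enrichment was 23.6, 37.0 and 25.0 with HIF-2α/1α and 3.99, 10.7 and 4.28 in HIF-1α (chr2:23418647-23420137, log2 difference 2.26, SE 0.51, limma adjusted p = 0.0165). In CYB5A, the gene of cytochrome b5 (chr18:74265868-74266876), it was 31.9, 175 and 47.0 against 7.35, 24.8 and 10.4 (2.14, limma adjusted p = 0.0172). The groups did not overlap in either region. The next in rank, at the promoter of the MYC antagonist MXD4, had 41.5, 23.3 and 18.6 against 6.38, 5.69 and 6.53 and did not pass (limma adjusted p = 0.0502).

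By pileup, limma called 334 regions higher in HIF-2α/1α (5.4% of 6181) and 483 higher in HIF-1α (7.81%), with all 13 regions called by fold enrichment among them. At an unadjusted p under 0.05 there were 856 and 849. The called differences had a median size of 0.86 and were no smaller than 0.38 on the log2 scale, and 244 of the 6181 regions differed by at least 1. Over all regions 74.3% differed by less than 0.5 and 96.1% by less than 1. With medians rather than quantiles equalised, 576 were higher with HIF-2α/1α and 422 with HIF-1α, so the share higher in HIF-2α/1α was 57.7% in place of 40.9%, and the balance of the 2 directions is not settled by these lists. Of the 817 calls, 815 kept their sign under that scaling and 730 passed again. Leaving out 1 list gave 111 to 327 and 312 to 453 calls. The calls higher in HIF-2α/1α fell to 170, 111 and 141 without its replicate 1, 2 or 3 and to 218 without HIF-1α replicate 3. There were 296 regions, 56 higher in HIF-2α/1α and 240 higher in HIF-1α, that passed whichever of the 6 lists was left out.

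**Figure D2:**
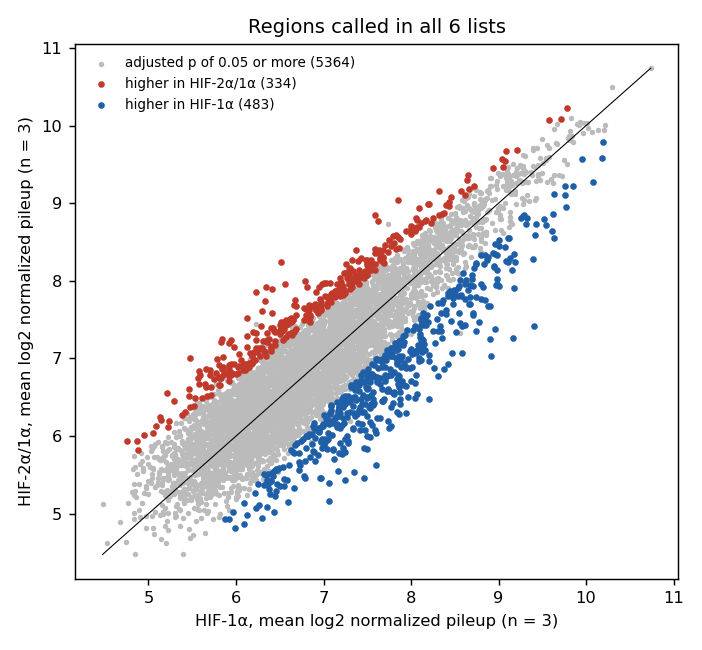
Mean log2 normalized pileup of the 3 HIF-1α lists (x axis) and the 3 HIF-2α/1α lists (y axis) at each of the 6181 regions called in all 6 lists. The line marks equal values. Red points (334) were higher in HIF-2α/1α and blue points (483) higher in HIF-1α by limma, and most regions lie near the line.

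The pileup profiles of the 6 lists stood apart by protein. Over the 6181 regions Pearson's r of log2 pileup was 0.870 to 0.926 between lists of the same protein and 0.793 to 0.859 between proteins. For fold enrichment it was 0.578 to 0.675 and 0.507 to 0.614. These correlations are across regions that share genome sequence and peak length, and they describe the lists without a test. The median pileup difference of single chromosomes ran from -0.04 to 0.16.

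The regions of lowest p by pileup and higher in HIF-2α/1α, named after their values were seen, lay at genes of varied function. At LMF1, a maturation factor of lipases, the normalized pileup was 519, 449 and 417 against 209, 224 and 151 in HIF-1α (chr16:951185-952679, intron, log2 difference 1.26, SE 0.18, limma adjusted p = 0.000126). At the promoter of ZNHIT1, a subunit of the SRCAP chromatin remodeller, it was 267, 260 and 223 against 74.4, 102 and 111 (log2 difference 1.40, limma adjusted p = 0.0002). At a region 127302 bp from CXCR4, a chemokine receptor gene induced when VHL is lost, it was 513, 599 and 475 against 177, 298 and 233 (1.19, limma adjusted p = 0.000227). In all 3 regions the lowest HIF-2α/1α list exceeded the highest HIF-1α list, and all 3 are among those whose sequences are printed above. The next in rank were the promoters of the kinase gene DYRK1A (251, 224 and 223 against 50.6, 73.1 and 114) and of the ω-amidase gene NIT2 (295, 210 and 230 against 54.6, 111 and 88.2).

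After SLC31A1, 5 of the next 9 regions higher in HIF-1α by pileup lay over 1 kb from a TSS. Promoters made up 37.7% of all 483 regions higher in HIF-1α and 36.9% of the 6181, so distal position is no trait of this set. In an intron of HIP1, an endocytic adaptor, the normalized pileup was 135, 151 and 178 in HIF-2α/1α and 688, 565 and 491 in HIF-1α (log2 difference -1.91, SE 0.18, limma adjusted p = 8.96e-07). In an intron of ABL1, a tyrosine kinase, it was 137, 138 and 185 against 519, 416 and 504 (-1.65, limma adjusted p = 6.09e-06). Near FOSL1, which encodes an AP-1 subunit, it was 249, 244 and 226 against 666, 602 and 489 (-1.28, limma adjusted p = 3.24e-05). The groups stood apart in all 3 regions.

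**Figure D3:**
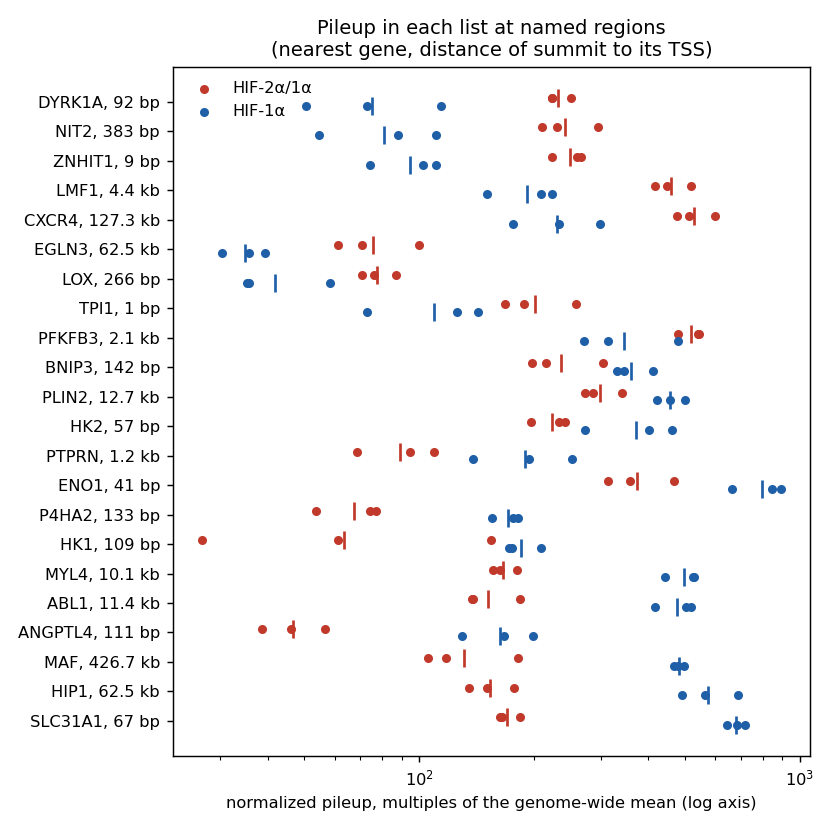
Normalized pileup (multiples of the genome-wide mean, log axis) in each of the 3 HIF-2α/1α lists (red points) and 3 HIF-1α lists (blue points) at the 5 regions of lowest p in each direction and at 12 regions of the gene lists that passed. Vertical ticks are means on the log scale, and labels give the nearest gene and the distance to its TSS. At SLC31A1 the points lie at 163 to 185 and 643 to 717.

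Known hypoxia genes were read from 7 lists with 78 genes, of which 72 had a tested region within 100 kb as their nearest gene, 278 regions in all. Of the 126 called in all 6 lists, none passed by fold enrichment, and 4 were higher in HIF-2α/1α (3.17%) and 9 higher in HIF-1α (7.14%) by pileup. Over all 6181 regions 5.4% and 7.81% were called in these directions, so the counts over the lists were near the background and are no result about hypoxia genes as a group. The median pileup difference over the 126 was 0.09, beside 0.04 over all 6181. Most regions of these genes, and of every list, did not differ by either measure.

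For glucose uptake and glycolysis, 44 regions of 21 genes were called in all lists, with 2 higher in HIF-2α/1α and 3 higher in HIF-1α by pileup and a median difference of 0.06. At the promoter of ENO1, a glycolytic enolase, the normalized pileup was 469, 314 and 358 in HIF-2α/1α and 893, 845 and 666 in HIF-1α, with no overlap (log2 difference -1.08, SE 0.16, limma adjusted p = 0.000166). At the promoter of HK2, an inducible hexokinase, it was 234, 197 and 242 against 462, 403 and 273 (-0.73, limma adjusted p = 0.0138), a call lost with HIF-2α/1α replicate 2 left out (adjusted p = 0.0838), with HIF-1α replicate 2 left out (0.0540) and with medians equalised (0.0501). The ENO1 call held with each list left out. At the promoter of HK1 the lists gave 154, 26.8 and 61.4 against 209, 172 and 176 (-1.55, limma adjusted p = 0.00994), where the low HIF-2α/1α replicate 2 decided the call (without it -0.91, adjusted p = 0.0681).

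The 2 glycolytic regions higher in HIF-2α/1α were at TPI1 and PFKFB3. At the TSS of TPI1, triose-phosphate isomerase, the normalized pileup was 259, 188 and 168 against 143, 126 and 73.1 (log2 difference 0.88, limma adjusted p = 0.0207). The TPI1 call was lost without HIF-2α/1α replicate 1 (adjusted p = 0.124), HIF-2α/1α replicate 2 (0.0579) or HIF-1α replicate 3 (0.111). At PFKFB3, which raises the glycolytic activator fructose-2,6-bisphosphate, it was 544, 539 and 478 against 272, 480 and 314, with 1 HIF-1α list overlapping (0.59, limma adjusted p = 0.0306), and that call held only with HIF-1α replicate 2 left out (adjusted p = 0.0603 to 0.118 with any other list left out). PGK1, a further glycolytic gene, had a pileup of 336, 267 and 178 against 332, 305 and 160 at its promoter and did not differ by this measure (-0.01, limma adjusted p = 0.99). Its fold enrichment was 17.3, 27.2 and 12.6 against 26.3, 91.3 and 20.5 (-1.27, limma adjusted p = 0.286).

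Secreted and vascular factors gave 16 regions called in all lists, with 0 higher in HIF-2α/1α and 2 higher in HIF-1α by pileup and a median difference of 0.02. At the promoter of ANGPTL4, an inhibitor of lipoprotein lipase, the normalized pileup was 56.5, 46.0 and 38.8 in HIF-2α/1α and 200, 129 and 167 in HIF-1α (chr19:8363029-8364962, log2 difference -1.81, SE 0.25, limma adjusted p = 0.00012). The groups were far apart and the call held with each list left out. The VEGFA promoter, the best known HIF target in angiogenesis, had 504, 520 and 400 against 450, 350 and 475 and did not pass (0.16, limma adjusted p = 0.544).

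Of collagen and matrix genes, P4HA2 and LOX passed in opposite directions among 9 regions with a median difference of 0.27. P4HA2, a collagen prolyl hydroxylase, had a promoter pileup of 76.9, 74.4 and 53.7 in HIF-2α/1α against 177, 181 and 155 in HIF-1α (log2 difference -1.34, limma adjusted p = 0.000518), with each list left out as well. LOX, which cross-links collagen, had 70.6, 87.0 and 76.0 against 35.3, 58.2 and 35.7 (0.89, limma adjusted p = 0.0415), a call that held only without HIF-1α replicate 2 (adjusted p = 0.0717 to 0.164 without any other list).

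Among oxygen-sensing genes 1 of 29 regions passed by pileup (median difference 0.03), an intronic site 62500 bp from the TSS assigned to EGLN3, the prolyl hydroxylase PHD3. Its normalized pileup was 70.6, 100 and 61.4 in HIF-2α/1α against 39.3, 35.8 and 30.3 in HIF-1α (log2 difference 1.12, limma adjusted p = 0.0137), and the call was lost without HIF-2α/1α replicate 2 (adjusted p = 0.108) or HIF-1α replicate 3 (0.0503). Among 12 regions of pH and mitophagy genes (median difference 0.11) the promoter of BNIP3, a mitophagy receptor, passed with 305, 216 and 199 against 412, 345 and 330 (-0.61, limma adjusted p = 0.0284). The BNIP3 call was lost with medians equalised (adjusted p = 0.153), without HIF-2α/1α replicate 2 (0.129) or 3 (0.146), and without HIF-1α replicate 1 (0.0665) or 2 (0.0514).

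The last 2 lists held genes known for control by 1 isoform. Of 18 regions of HIF-1α-controlled genes, 0 were higher in HIF-2α/1α and 4 higher in HIF-1α by pileup (22.2%, beside 7.81% of all 6181 regions, with 5.4% higher in HIF-2α/1α), with a median difference of -0.05. Besides ENO1 and BNIP3 they included PTPRN, a receptor-type phosphatase of secretory granules, at 109, 94.6 and 68.9 against 252, 194 and 138 (log2 difference -1.08, limma adjusted p = 0.0054). At the PPFIA4 promoter, of a liprin gene induced in hypoxia, the fold enrichment was 63.8, 125 and 53.9 against 24.5, 30.8 and 33.4, apart between the proteins but short of the threshold (log2 difference 0.98, limma adjusted p = 0.467), as was its pileup (0.34, limma adjusted p = 0.291). Of 17 regions of HIF-2α-controlled genes, 0 were higher in HIF-2α/1α and 2 higher in HIF-1α (11.8%, beside the same 7.81%), with a median of -0.11. Both counts are small, and nothing particular to either list is read from them. One of them lay 12711 bp from PLIN2, a lipid droplet coat protein, at 273, 286 and 341 against 421, 499 and 457 (-0.62, limma adjusted p = 0.0114). The PLIN2 call was lost with medians equalised (adjusted p = 0.194) and without HIF-2α/1α replicate 2 (0.0605) or HIF-1α replicate 2 (0.0508). The lists count regions within 100 kb, which leaves out the CXCR4 region above, higher in HIF-2α/1α. TGFA, an EGF receptor ligand, was the nearest gene of several regions, and the others are not described here. The region 43029 bp from TGFA had a fold enrichment of 161, 124 and 63.7 against 48.9, 43.8 and 32.6 (log2 difference 0.89, limma adjusted p = 0.526) and a pileup difference of 0.35 (limma adjusted p = 0.065).

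The same DNA-binding parts can be compared on the other disordered region, HIF-2α against HIF-1α/2α, with lists that share no sample with the first pair. Over the 2566 regions called in all 12 lists, 173 were higher in HIF-2α (6.74%) and 221 higher in HIF-1α/2α (8.61%) by pileup. Of the 334 regions higher in HIF-2α/1α, 239 were among the 2566, and 213 of them were above 0 in the second pair with 59 called higher and 0 lower. Of the 483 higher in HIF-1α, 177 were among them, with 173 below 0, 116 called lower and 0 higher. Over all 2566 regions 1403 were above and 1162 below 0. None of these 239 and 177 regions was called in the opposite direction in the second pair, and the rest of the 334 and 483 had no test there.

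The median difference was 0.75 in the first pair and 0.41 in the second for regions higher in HIF-2α/1α, and -0.82 and -0.91 for regions higher in HIF-1α, beside 0.15 and 0.06 over all 2566. The regions were chosen by their difference in the first pair, which enlarges the first-pair medians. The requirement of a call in all 12 lists kept 239 of 334 and 177 of 483. The second pair was fitted with quantile normalization only. These medians therefore carry no comparison of size between pairs or directions. Pearson's r between the 2 differences was 0.677 across these regions, which share sequence and the requirement to be called in all 12 lists, and it is a description. ENO1, HK2 and ANGPTL4 were also lower with the HIF-2α part in the second pair (log2 differences -1.52, -1.13 and -2.47, limma adjusted p = 3.35e-06, 0.000559 and 3.96e-06). LMF1 and ZNHIT1 were also higher (2.17 and 1.59, limma adjusted p = 2.59e-05 and 1.59e-05). These genes are examples called in both pairs and do not stand for the rest. Only 59 of 239 regions higher in HIF-2α/1α and 116 of 177 higher in HIF-1α were called again.

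**Figure D4:**
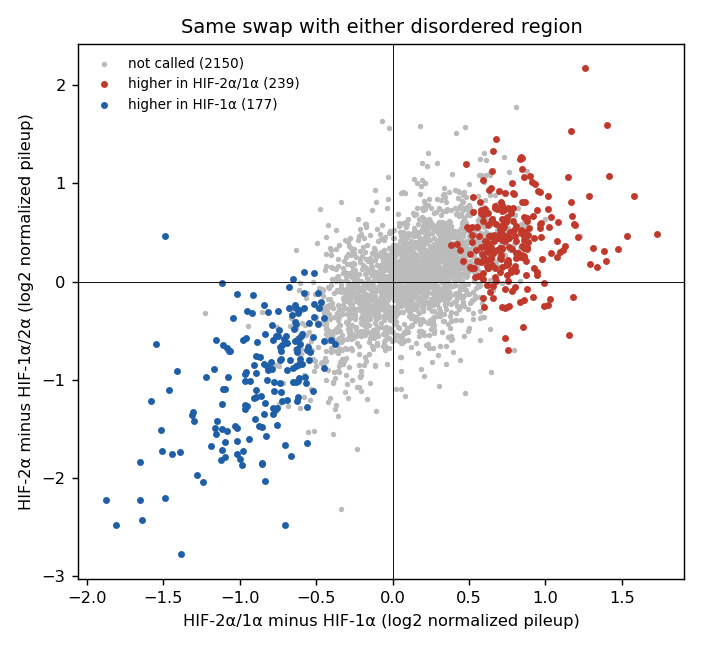
Difference in log2 normalized pileup between DNA-binding parts on the HIF-1α disordered region (x axis, HIF-2α/1α minus HIF-1α) and on the HIF-2α disordered region (y axis, HIF-2α minus HIF-1α/2α) at the 2566 regions called in all 12 lists. Red and blue points were called in the first pair, and 213 of 239 red points lie above 0 and 173 of 177 blue points below 0 on the y axis.

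Regions called in every list of 1 protein and in no list of the other were few. There were 189 for HIF-2α/1α (0.961% of 19677) and 250 for HIF-1α (1.27%), and in lists of equal length 212 (1.43% of 14779) and 240 (1.62%). Of these, 79 and 109 were in both settings. Genes with a called promoter numbered 6790 in at least 2 lists, and 50 were called only with HIF-2α/1α (0.736%) and 76 only with HIF-1α (1.12%). With equal lengths they were 56 (1.03% of 5443) and 95 (1.75%), of which 17 and 34 were also found with full lists. Promoters found in both settings and named after their values were seen included SCAP, the SREBP chaperone, SIRT2, a deacetylase, and SMC3, a cohesin subunit, for HIF-2α/1α, and CAV1, caveolin-1, HSP90AA1, a chaperone, and MFN2, a mitochondrial fusion factor, for HIF-1α.

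The one hypoxia-list gene among these promoters was CA9, carbonic anhydrase IX, a surface enzyme of pH control and a classical HIF-1α target. Its promoter region (chr9:35673555-35674772, summit 123 bp from the TSS) had a fold enrichment of 18.0, 21.2 and 13.6 in the HIF-1α lists and was called in no HIF-2α/1α list, with full or equal lengths. It was called in 3 of 3 HIF-1α/2α lists, 0 of 3 HIF-2α lists, 1 of 3 KIN lists and 0 of 3 WT lists. All 6 lists of proteins with the HIF-1α DNA-binding part thus held the region, and none of the 6 with the exogenous HIF-2α part.

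Others of the HIF-1α set with the highest fold enrichment lay at CDH2, the gene of N-cadherin (intron, fold enrichment 9.84, 30.1 and 22.6), STARD4, a cholesterol carrier (6.30, 23.7 and 20.0), and MTERF4, a mitochondrial ribosome factor (promoter, 20.0, 20.8 and 6.68). All 3 were called in 3 of 3 HIF-1α/2α lists and 0 of 3 HIF-2α lists. They do not stand for all 250 regions of this set, of which HIF-1α/2α lists called 39.6% to 46.8% and HIF-2α replicate 2 called 34.4%. The HIF-2α/1α set was led by regions at HDC, histidine decarboxylase (21.9, 29.0 and 5.47), SLC10A2, a bile acid transporter gene 1032274 bp away (4.70, 29.5 and 21.7), SQOR, a sulfide oxidase (6.07, 37.6 and 7.73), and the CCDC138 promoter (18.7, 14.2 and 8.21). These were called in 2, 3, 1 and 3 of 3 HIF-2α lists and in 1, 3, 0 and 0 of 3 HIF-1α/2α lists. The pattern was not uniform, since a region of this set nearest to SOCS6, a suppressor of cytokine signalling (6.57, 27.4 and 7.74), was called in 1 of 3 HIF-2α lists and 3 of 3 HIF-1α/2α lists. A region 13217 bp from SLC2A1, the glucose transporter GLUT1, belonged to the same set with lower values (8.67, 9.19 and 6.89).

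In the lists that had not chosen these sets, the HIF-1α set was called in 40.4%, 46.8% and 39.6% of regions with HIF-1α/2α and in 3.6%, 34.4% and 2.8% with HIF-2α. The 2 lines did not overlap, and the difference of means was 28.7 percentage points (exact permutation test, p = 0.1, the smallest possible). The HIF-2α/1α set was called in 24.3%, 36.0% and 18.5% with HIF-1α/2α and in 13.2%, 62.4% and 11.6% with HIF-2α, which overlapped (-2.82 points, exact p = 1). List length moves with these values, since all 19677 regions were called in 47.9%, 58.8% and 45.2% with HIF-1α/2α and in 25.6%, 67.4% and 23.7% with HIF-2α. WT lists called at most 7.6% of either set.

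The share of the HIF-1α set minus that of the HIF-2α/1α set was then taken within each list, where both sets met the same list length. It was -9.63, -28.0 and -8.84 points in HIF-2α and 16.1, 10.8 and 21.1 points in HIF-1α/2α. Its size still moved with list length. The lists that called most of all 19677 regions gave the lowest value of their line, -28.0 in HIF-2α (67.4% called) and 10.8 in HIF-1α/2α (58.8% called). Every HIF-2α list favoured the HIF-2α/1α set and every HIF-1α/2α list the HIF-1α set. The means differed by 31.5 points (exact permutation test, p = 0.1, the smallest possible), and by 38.7 points with sets from lists of equal length. In the KIN clone, with endogenous HIF-2α, it was -1.70, -8.09 and -5.64 points, and in WT 0, 1.25 and -0.658.

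**Figure D5:**
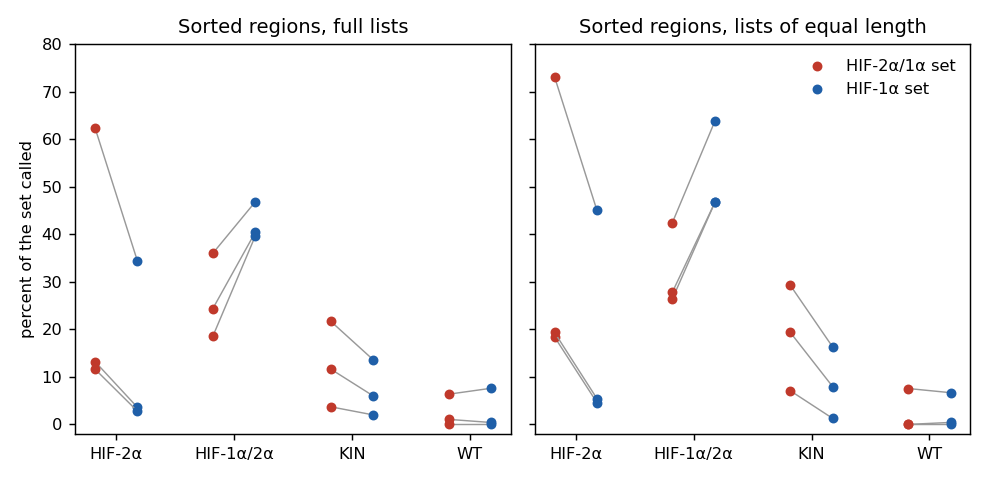
Percent of regions called in each list of HIF-2α, HIF-1α/2α, KIN and WT, for the regions called in 3 of 3 HIF-2α/1α and 0 of 3 HIF-1α lists (red) and the reverse (blue), with full lists on the left and lists of equal length on the right. Grey lines join the 2 values of 1 list. The lines fall in all 3 HIF-2α lists and rise in all 3 HIF-1α/2α lists.

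Sequence and position of the differing regions were described without a test, since the sets were chosen by the calls. The promoter share was 28.1% of regions with higher HIF-2α/1α pileup, 37.7% of those with higher HIF-1α pileup and 36.9% of all 6181. The HRE was within 50 bp of the summit in 31.7%, 35.0% and 33.6%, and GGGCGG, the box of SP and KLF factors, in 11.4%, 20.5% and 18.4%. Regions higher in HIF-2α/1α were longer, with a median of 1510 bp against 1149 bp and 1147 bp. They were also called more often in the KIN lists, in 71.9%, 91.3% and 85.0%, against 32.7%, 67.7% and 58.6% of the regions higher in HIF-1α and 37.6%, 70.4% and 62.4% of all 6181. WT replicate 2 called 15.9% of the regions higher in HIF-2α/1α, 20.7% of those higher in HIF-1α and 17.7% of all 6181.

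The same features were tested per list, as the mean log2 pileup of regions with the feature minus that of regions without it. Of 16 features 1 did not overlap between the proteins, namely TACGTG within 50 bp of the summit, an HRE preceded by T, at 268 regions. Its value was 0.161 ± 0.0195 (SD, n = 3) in HIF-2α/1α and 0.0946 ± 0.0195 (SD, n = 3) in HIF-1α, a difference of 0.07 (exact permutation test, p = 0.1, adjusted p = 0.615). The lines overlapped for the HRE as a whole (-0.01, exact p = 0.7), the promoter (-0.04, exact p = 0.5) and GGGCGG (-0.07, exact p = 0.3). Lists of 1 replicate number were also compared with each other, a step added after the data were seen. The difference within numbers 1, 2 and 3 was -0.065, -0.022 and -0.036 for the promoter, -0.0080, -0.013 and -0.0098 for the HRE, -0.083, -0.055 and -0.083 for GGGCGG, and 0.074, 0.065 and 0.059 for TACGTG. Within numbers 14 of the 16 features had 1 sign by pileup and 8 by fold enrichment, and 3 pairs allow no exact p below 0.25. By fold enrichment TACGTG overlapped between them (0.03, exact p = 0.2), and 2 other features did not overlap, GCGTG without ACGTG (-0.04, exact p = 0.1, adjusted p = 0.8) and the RUNX motif (-0.06, exact p = 0.1, adjusted p = 0.8).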

How the data were processed

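Peak lists of 18 anti-V5 libraries were used. Per the study's methods, the authors aligned reads to hg38 with Bowtie2 2.3.4.1 in local mode (fragments of 10 to 700 bp), called each library with MACS2 against its own IgG library (q 0.01, maximum gap 400 bp, duplicates kept, replicates not pooled) and removed blacklisted regions with bedtools 2.28.0. The deposited lists give the fold enrichment (a ratio over local background, with 1 added to both terms) and the −log10 of p and q at each summit. What made some lists longer than others was not tested.

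Here, peaks of the 18 lists were merged on 1 bp of overlap, and 498 regions called in 2 or more WT lists were left out. Pileup and depth were computed from the fold and −log10 p in each deposited list by inverting the MACS2 formula, and the −log10 p was matched within 0.01 for 100% of peaks with a −log10 p below 100. Above that limit whole fragments could not be resolved and the pileup was solved as a continuous value. HIF-2α/1α replicate 2 had been scaled by 0.949. Genes were protein-coding genes of GENCODE release 44, and a region was given the nearest TSS. The build was checked, with 0 peaks past a chromosome end.

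Values per list were compared by two-sided exact permutation tests and regions by limma 3.58.1 on the log2 scale, at an adjusted p under 0.05, in R 4.3.3. The test of the Jaccard index was not two-sided and counted only divisions whose difference was at least as large as that observed. Python 3.11.15 with NumPy 2.4.6, pandas 2.3.3, SciPy 1.17.1 and pysam 0.24.0 did the rest. On simulated data of this comparison with 6181 regions, changes of 1 on the log2 scale were recovered in 4% of cases from fold enrichment and 72% from pileup, with 4 and 9 false calls.

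Open to naming by rule were the 10 regions of lowest p by fold enrichment in each direction and the 10 of highest fold enrichment called with 1 protein only. The gene lists and loci shown in the study were also open to naming. Not all of these were named, and the study's loci HSD3B7 and PLXNA2 are among those left out. One region of the gene lists that passed is not reported here. The regions compared, gene lists and tests were chosen with earlier results of these data known. Alternatives were lists of equal length, a higher q limit, equal depth, other scalings, a replicate block and leaving out each list. The pileup as a result of its own, with its alternatives, and the comparison of called sets within the lists of other lines were added after the data were seen.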

Additional observations from a re-analysis of the deposited data

Results flagged for a closer look

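The 2 lines with the HIF-2α disordered region moved in opposite directions on the regions that separated HIF-2α/1α from HIF-1α. The percent of the HIF-1α set minus the percent of the HIF-2α/1α set was above 0 in 3 of 3 HIF-1α/2α lists and below 0 in 3 of 3 HIF-2α lists, and the means differed by 31.5 percentage points (two-sided exact permutation test, p = 0.1, the smallest that 3 lists against 3 allow).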

How the results depend on the processing

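The 7 measures per list cannot pass 0.05 with 3 lists against 3, so only their direction is followed here. With 1 list left out the differences ran from -0.23 to 0.14 (log2 peak number), -0.85 to 4.23 points (endogenous HIF-2α regions), -1.92 to 0.43 (promoter share), -0.26 to 0.75 (HRE excess), 1.05 to 2.55 (ACGTG share), -0.36 to -0.13 (AP-1 excess) and 0.0031 to 0.0201 (Jaccard), so the first 4 changed sign. The HRE excess also reversed in lists of equal length, at -0.181 points ranked by −log10 p and -0.304 ranked by fold. With 1 list left out and 2 lists asked for, the regions called with 1 protein only numbered 295 to 749 (HIF-2α/1α) and 309 to 708 (HIF-1α), and the promoter genes 78 to 175 and 105 to 240. The share of the HIF-1α set called, HIF-1α/2α minus HIF-2α, ran from 17.5 to 39.1 points, and that of the HIF-2α/1α set from -11.6 to 13.8 points, above 0 without HIF-2α replicate 2 (13.8) or HIF-1α/2α replicate 3 (1.06). The difference within lists stayed at 25.2 to 34.8 points.

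Calls higher in HIF-2α/1α by fold enrichment were 5 with medians equalised, 5 with all 12 exogenous lists in the fit (lists of the other lines without a call at a region were left out there) and 334 by pileup, and those higher in HIF-1α 483 by pileup. With 1 list left out they were 0 to 4 and 0 to 10. By pileup they were 576 with medians equalised, and 111 to 327 and 312 to 453 with 1 list left out. The cause was not tested, beyond the lower spread of the pileup and the fewer lists.

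Library identifiers in the labels ran consecutively within a replicate number, and what such libraries shared is not stated. Deviations of same-numbered lists correlated at 0.06, 0.11 and 0.01 (fold) and 0.21, 0.19 and 0.095 (pileup), not all above 0.1, so the block was kept as an alternative. A replicate block gave 2 and 10 calls by fold and 494 and 595 by pileup. For the 7 measures and the difference within lists of 31.5 points the block allows no p below 0.25. Depth limits what a missing peak can show, and fold enrichment recovered few changes of 1 on the log2 scale.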
